A study of Mus musculus with 24 samples.

Results

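The comparison described here is the response of wild-type mouse bone marrow-derived macrophages (BMDM) to 24 h of interleukin 4 (IL4), measured by RNA sequencing across all genes. Its members are the 2 libraries of wild-type BMDM given 20 ng/ml IL4 for 24 h and the 2 libraries of wild-type BMDM left untreated, which are 4 of the 24 samples of a study of macrophages lacking Tet2. They were chosen by their labels of genotype, treatment and time, with earlier results of these data known. Both groups come from C57BL/6 marrow, grown for a week in medium with L929-conditioned supernatant and recombinant M-CSF and moved to DMEM with serum the evening before stimulation. The untreated libraries are labelled as time 0, so the effects of IL4 and of another 24 h in that medium cannot be told apart. Both groups are labelled wild type. The design text calls the replicates biological without saying whether they came from separate animals or cultures. P-values and standard errors (SE) therefore measure only the spread between libraries, which the fit pooled over all 12 BMDM libraries. Wild-type BMDM after 10 h of IL4 and BMDM labelled Tet2 knockout, untreated or after 24 h of IL4, each with 2 libraries, serve below for comparison. Tet2 RNA was at 11.3 and 10.3 FPKM with 24 h of IL4 in the libraries labelled knockout, against 9.38 and 9.82 FPKM in wild type, and at 4.02 and 4.48 FPKM untreated, against 4.11 and 5.91 FPKM in wild type. These levels do not separate the genotypes, the deleted stretch of the gene is not given in the sources used here, and the libraries are named by their label only.

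IL4 is a type 2 cytokine that binds the IL4 receptor alpha chain, which pairs with the common gamma chain or with the IL13 receptor. The receptor's Janus kinases phosphorylate STAT6, which enters the nucleus and turns on genes of alternative (M2) activation, a state known for arginase, chitinase-like and resistin-like proteins, lectin receptors and oxidative metabolism. Macrophages in this state are known for roles in helminth immunity, tissue repair and cell fusion.

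RNA was depleted of ribosomal RNA and sequenced, and values were deposited as FPKM, fragments scaled by gene length and library size. Of 23309 gene models, 10510 reached 1 FPKM in at least 2 of the 12 BMDM libraries and were tested with limma on log2(FPKM + 1). The log2 change given throughout is IL4 minus untreated on that scale, which understates the change of genes at low levels. A gene is said to have risen or fallen when its adjusted p was below 0.05. Absolute depth is unknown, because FPKM holds no counts. Relative depth, read from the steps between low values, was 0.953 and 0.877 in the IL4 libraries and 1.0 and 1.01 in the untreated ones, and 9707 and 9869 genes reached 1 FPKM with IL4, against 9846 in each untreated library. Total FPKM was 466644 and 557183 with IL4, against 445502 and 365118 untreated, and the RNase P RNA gene Rpph1 made up 11.0% and 15.5% of it with IL4, against 16.1% and 14.6% untreated. In bulk RNA, a change in the share of cells that express a gene and a change in RNA per cell cannot be told apart.

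After 24 h of IL4, 3120 of the 10510 genes tested had risen (29.7%) and 2135 had fallen (20.3%). Counts of gene lists below are to be read beside these shares. The split depends on how libraries are scaled: 59.4% of the calls were rises, but with quantile normalization 2606 genes rose and 2821 fell, 48.0% rises. The median log2 change of all genes tested was 0.06. Most changes were small. At least 2-fold changes were called for 701 genes that rose (6.67%) and 356 that fell (3.39%), at least 4-fold for 150 and 34, at least 8-fold for 62 and 7, and at least 16-fold for 27 and 3. Large rises thus outnumbered large falls in this scaling, while with quantile normalization 513 genes rose and 485 fell at least 2-fold. For 66.1% of genes the IL4 and the untreated libraries did not overlap, 37.5% lying higher and 28.7% lower with IL4. Groups overlapped in only 8 of the called genes, so a lack of overlap adds little to a call.

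**Figure D1:**
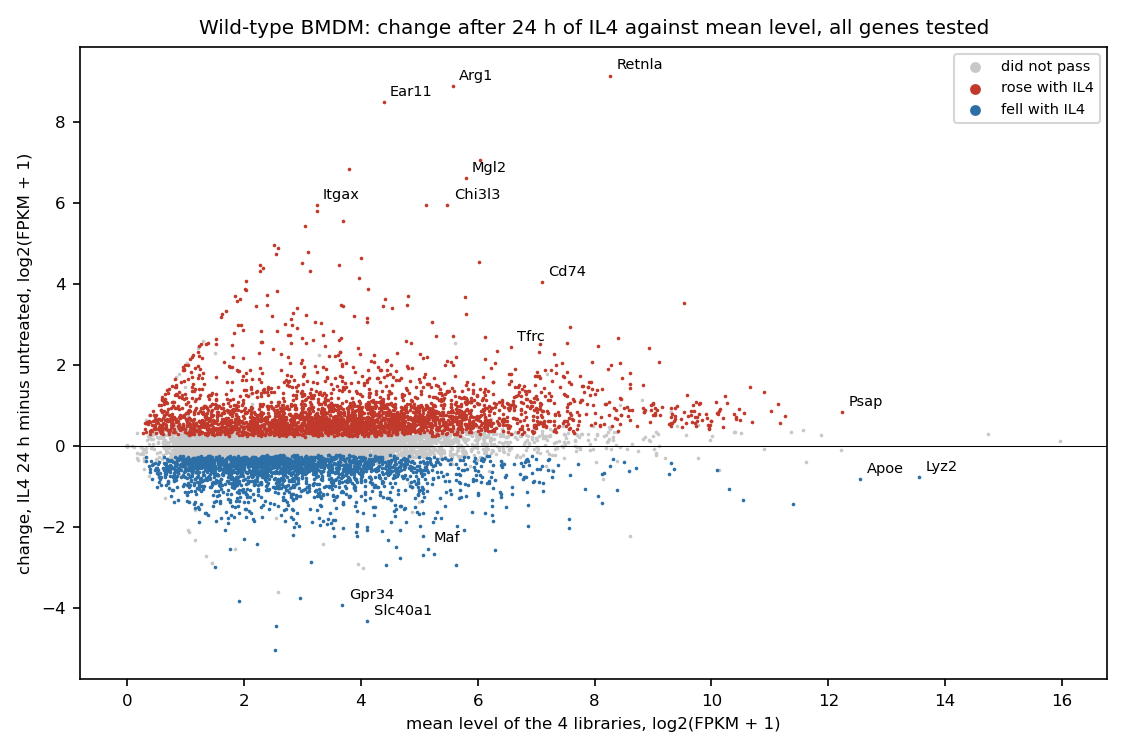
Log2 change in wild-type BMDM, 24 h of IL4 minus untreated (vertical axis), against mean log2(FPKM + 1) (horizontal axis) for the 10510 genes tested, with genes that rose in red, genes that fell in blue and the others in grey. The red points reach further from 0 (Retnla, 9.13) than the blue points, which end at -5.05 for a small RNA gene and at -4.44 for Rpl31-ps12.

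The highest rise was that of Retnla, which encodes the secreted resistin-like molecule alpha (Fizz1, RELM alpha). Retnla had 7337 and 7285 FPKM in IL4-treated cells, against 13.3 and 10.9 FPKM in untreated cells, a log2 change of 9.13 ± 0.18 (SE, n = 2 libraries each, adjusted p = 3.0e-10). With the RNA genes Rpph1 and Rmrp left out, it ranked 2 by mean level with IL4 and 3554 without, and it held 1.87% and 1.69% of all FPKM outside Rpph1 and Rmrp with IL4, against 0.00385% and 0.00377% untreated. Arg1, arginase 1, which splits arginine into ornithine and urea, had 1065 and 991 FPKM with IL4, against 1.38 and 1.03 FPKM untreated (8.87 ± 0.12, adjusted p = 2.4e-11). Its rank on the same basis was 65 with IL4 and 9593 without. In both genes the 2 IL4 libraries lay close together and far above the 2 untreated ones.

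Other genes among the 15 largest rises follow. Chi3l3 (Ym1), a chitinase-like lectin, had 358 and 341 FPKM with IL4, against 5.6 and 3.91 FPKM untreated (5.94 ± 0.14). Mgl2, a galactose-binding C-type lectin (CD301b), had 509 and 585 FPKM with IL4, against 5.55 and 3.82 FPKM untreated (6.60 ± 0.17). Ccl24 (eotaxin 2), which draws eosinophils, had 258 and 287 FPKM with IL4, against 4.17 and 2.82 FPKM untreated (5.94 ± 0.15). The 15 were picked among called genes without overlap between groups, so the lack of overlap was set by the choice. Each of these 3 genes differed by far more than its replicates did. Ear11, of the eosinophil-associated ribonucleases, had 378 and 415 FPKM with IL4, against 0 and 0.232 FPKM untreated (8.48 ± 0.18), and its relatives Ear2 (55.7 and 49.8 against 0.3 and 0.208 FPKM) and Ear10 (4.38 and 3.22 FPKM, listed at 0 in both untreated libraries) rose too. The Ear genes are similar in sequence, as are Chi3l3 and Chi3l4 (8.64 and 7.54 FPKM with IL4, against 0.015 and 0.00593 FPKM untreated). How reads were split within each family is therefore uncertain.

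Several of the highest rises were in genes best known from other cells or settings. Itgax, the integrin alpha X chain (CD11c), had 67.9 and 78.6 FPKM with IL4, against 0.277 and 0.15 FPKM untreated (5.93 ± 0.14). F10, the precursor of coagulation factor X, had 84.1 and 90.6 FPKM with IL4, against 0.926 and 0.876 FPKM untreated (5.54 ± 0.10), and F7, coagulation factor VII, had 10.7 and 12.9 FPKM with IL4, against 0.0726 and 0.0716 FPKM untreated. Adipoq, the adipocyte hormone adiponectin, had 28.2 and 33.3 FPKM with IL4, against 0 and 0.0433 FPKM untreated (4.95 ± 0.10). In all 4 genes the untreated libraries were under 1 FPKM and the IL4 libraries above 10 FPKM. Tmem26, a transmembrane protein, had 27.1 and 31.2 FPKM with IL4, against 0.109 and 0.173 FPKM untreated. Il4i1, a secreted L-amino acid oxidase named for its induction by IL4, had 34.9 and 54.5 FPKM with IL4, against 1.15 and 0.245 FPKM untreated. Batf3, an AP-1 type transcription factor known from dendritic cells, had 67.4 and 93.6 FPKM with IL4, against 2.79 and 1.74 FPKM untreated (4.64 ± 0.21). The gene model Rpl34-ps1, a processed pseudogene of a ribosomal protein whose reads may belong to other copies, had 416 and 1355 FPKM with IL4, against 0.0136 and 31.0 FPKM untreated (7.04 ± 1.33, adjusted p = 0.00153), with libraries of each group far apart.

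**Figure D2:**
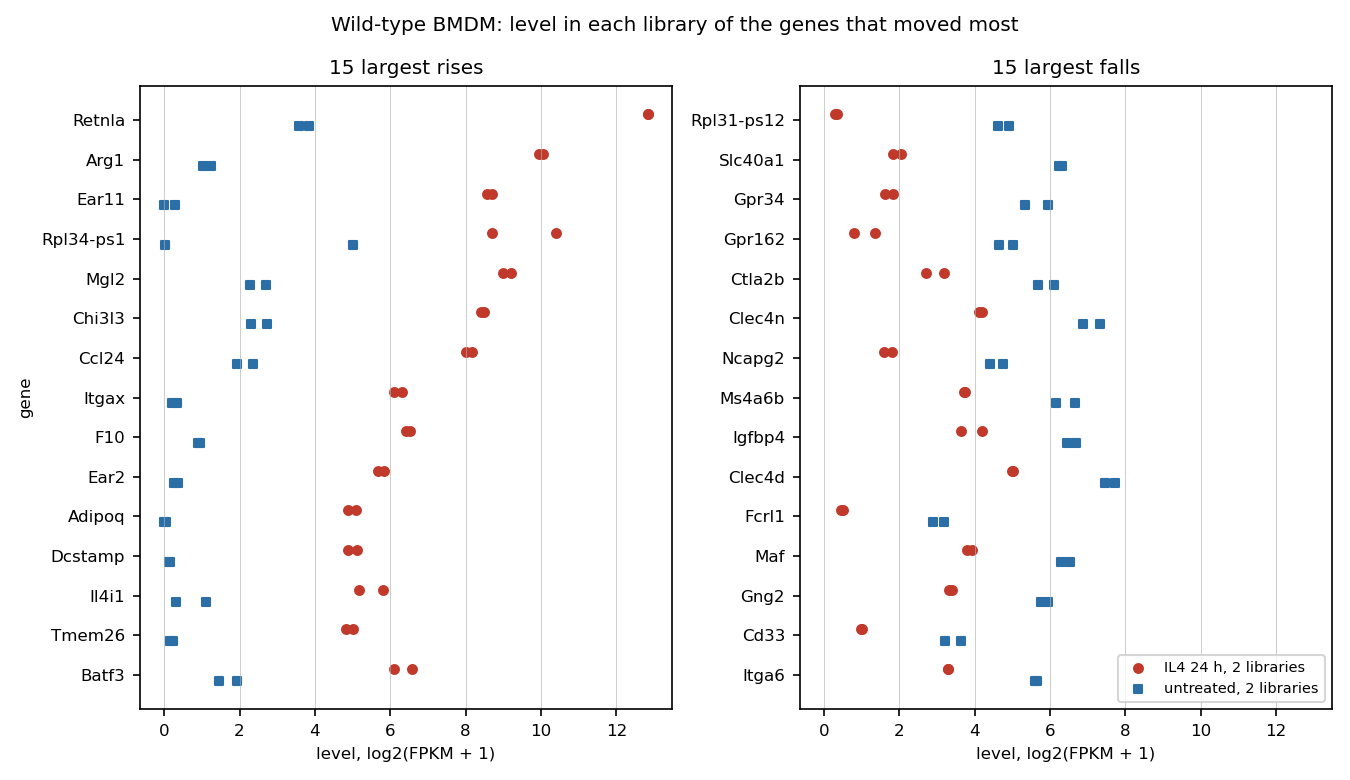
Level of the 15 genes with the largest rise and the 15 with the largest fall whose groups did not overlap, as log2(FPKM + 1) on the horizontal axis, with each IL4 library as a red circle and each untreated library as a blue square. Retnla lies at 7337 and 7285 FPKM with IL4 and at 13.3 and 10.9 FPKM untreated, and the libraries of a group lie close together except for Rpl34-ps1.

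By a rule of under 1 FPKM in both untreated libraries and at least 10 FPKM in both IL4 libraries, 24 genes that rose were switched on, 21 of them with a gene name. Besides those above they included Flt1, the VEGF receptor 1 (20.8 and 23.4 against 0.127 and 0.0717 FPKM), Pdcd1lg2, the inhibitory ligand PD-L2 (10.7 and 14.1 against 0.14 and 0.0307 FPKM), and Slc7a2, an importer of arginine and lysine (20.4 and 22.2 against 0.716 and 0.449 FPKM). By the reverse rule 3 genes were switched off, and the only named one was the pseudogene model Rpl31-ps12.

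The promoters of the genes at the top of the response are shown because STAT6 is known to prefer a palindrome of TTC, any 4 bases and GAA, which reads the same on both strands. No other motif was searched. Windows of 250 bases before to 50 bases after the start were taken from RefSeq on GRCm38.p6, a build other than the mm9 of the files. Of the 15 genes with the largest rises, 11 had a promoter in that table and 3 of these held the motif. They are given 5′ to 3′ on the plus strand, with the motif in capitals.
Retnla (chr16:48842359-48842658): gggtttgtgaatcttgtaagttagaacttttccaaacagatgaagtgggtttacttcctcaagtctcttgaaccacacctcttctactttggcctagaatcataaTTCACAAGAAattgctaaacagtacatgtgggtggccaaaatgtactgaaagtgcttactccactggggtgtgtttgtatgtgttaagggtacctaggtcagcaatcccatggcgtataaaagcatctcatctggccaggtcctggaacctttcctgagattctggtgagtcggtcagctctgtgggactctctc
Itgax (chr7:128129300-128129599): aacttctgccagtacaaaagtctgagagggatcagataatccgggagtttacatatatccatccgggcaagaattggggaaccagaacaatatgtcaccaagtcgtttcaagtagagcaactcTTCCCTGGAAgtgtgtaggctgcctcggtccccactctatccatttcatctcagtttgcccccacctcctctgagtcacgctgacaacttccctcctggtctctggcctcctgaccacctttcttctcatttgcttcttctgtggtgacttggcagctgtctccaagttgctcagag
Tmem26 (chr10:68723496-68723795): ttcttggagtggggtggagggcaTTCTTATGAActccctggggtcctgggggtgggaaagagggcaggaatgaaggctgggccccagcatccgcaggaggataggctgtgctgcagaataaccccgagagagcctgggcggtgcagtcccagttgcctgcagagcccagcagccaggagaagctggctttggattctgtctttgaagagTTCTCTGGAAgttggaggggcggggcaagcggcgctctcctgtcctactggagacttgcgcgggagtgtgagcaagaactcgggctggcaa
The match begins 145 bases before the start in Retnla and 127 bases before it in Itgax, and Tmem26 has matches 227 and 41 bases before its start. Across the table the motif was common. Counted by gene, at any of its starts, it stood in 46 of the 546 genes that rose at least 2-fold (8.42%). By the same count it stood in 18 of the 269 genes that fell at least 2-fold (6.69%). Of all tested genes with a promoter it stood in 549 of 8396 (6.54%). Counted by promoter instead, it stood in 6.95% of all 32851, a share in another unit. A match is a string of letters and not evidence of binding.

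The receptor itself moved in several directions. Il4ra, the receptor's ligand-binding chain, was lower at 24 h, with 16.2 and 22.7 FPKM, against 37.8 and 28.7 FPKM untreated (-0.75 ± 0.17, adjusted p = 0.00476). Il13ra1, its partner in the type II receptor, had 1.31 and 0.985 FPKM, against 4.93 and 3.91 FPKM untreated (-1.33 ± 0.13). Il2rg, the common gamma chain that makes the type I receptor, had 32.4 and 37.6 FPKM, against 13.4 and 16.6 FPKM untreated (1.17 ± 0.12). The chains thus fell and rose without overlap between groups. Jak2, a receptor kinase, rose (1.17) and Inpp5d, the phosphatase SHIP1, fell (-1.09). Stat6 had 39.4 and 49.4 FPKM, against 44.5 and 35.3 FPKM untreated (0.15, adjusted p = 0.359). Of the 16 tested genes listed for the receptor and STAT6, 5 rose (31.2%) and 4 fell (25%), near the 29.7% and 20.3% of all genes tested, with a median of -0.05. Without the second IL4 library 3 rose, and with quantile normalization 8 fell, with a median of -0.28. The median was 0.13 without the first IL4 library.

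Some feedback inhibitors of cytokine signalling had large rises. Socs1, which blocks Janus kinases, had 26.8 and 50.6 FPKM with IL4, against 0.585 and 0.735 FPKM untreated (4.51 ± 0.22). Dusp4, a phosphatase of MAP kinases, rose by 3.01, and the STAT target inhibitors Socs2 and Cish by 2.98 and 2.54. Of 18 tested inhibitors 7 rose (38.9%), 6 of them at least 2-fold, and 2 fell (11.1%), while the median was -0.16. Of all genes tested 29.7% rose and 20.3% fell. A stricter filter of 1 FPKM in all 12 BMDM libraries drops genes low in untreated cells, so counts under it cover fewer members. Of the 220 named genes that stayed in, 219 kept their call. With this filter 3 inhibitors rose and 4 fell. The count of falls was 1 without the first IL4 library, 5 without the second, 5 with quantile normalization and 6 with median-of-ratios scaling.

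Transcription factors of alternative activation split into rises and falls. Egr2, a zinc finger factor induced by IL4 in macrophages, had 52.9 and 61.3 FPKM with IL4, against 1.76 and 1.5 FPKM untreated (4.47 ± 0.10, adjusted p = 5.3e-10). Irf4, needed for much of the M2 programme in mouse macrophages, had 22.6 and 24.1 FPKM, against 1.31 and 1.27 FPKM untreated (3.41 ± 0.09). Pparg, the nuclear receptor of fatty acids, had 60.8 and 58.3 FPKM, against 18.5 and 21.8 FPKM untreated (1.52 ± 0.13). These factors rose with no overlap between the groups. Bhlhe40 (3.27), Nfil3 (3.06), Klf4 (2.48), Myc (1.69), the PPAR coactivator Ppargc1b (1.66) and the LXR gene Nr1h3 (1.60) rose as well. Maf, a factor of resident macrophages, fell to 12.9 and 14.4 FPKM, against 77.3 and 91.4 FPKM untreated (-2.54 ± 0.12), and Bhlhe41 fell by 1.70. In the list of 22 tested factors 11 rose, all at least 2-fold, and 7 fell, 3 at least 2-fold, with a median of 0.69. With the stricter filter 7 rose and 4 fell, with a median of 0.35. Immediate early and stress genes rose in 16 of 20 tested members (80.0%, beside 29.7% of all genes tested), among them Klf4, Atf3 (2.32) and Junb (1.17).

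Of 28 tested effectors of alternative activation, most of them secreted, 20 rose, 19 of them at least 2-fold, and 6 fell, with a median of 2.09. With the stricter filter 13 rose and 3 fell, with a median of 1.46. Monocyte-drawing chemokines were among the effectors that rose. Ccl7 had 64.2 and 65.8 FPKM with IL4, against 2.07 and 3.5 FPKM untreated (4.15 ± 0.16), and Ccl2 had 98.0 and 103 FPKM, against 8.46 and 5.44 FPKM untreated (3.70 ± 0.18). The type 2 chemokines Ccl22 (3.33 and 3.89 FPKM) and Ccl17 (2.46 and 3.57 FPKM) stayed far below Ccl24 in level, although both were at or near 0 in untreated cells. Fn1, fibronectin, had 33.2 and 43.3 FPKM with IL4, against 0.769 and 1.15 FPKM untreated (4.32 ± 0.13). Mmp12, the macrophage elastase, had 76.9 and 70.3 FPKM, against 6.79 and 5.5 FPKM untreated (3.39 ± 0.16). Not all products rose: F13a1, the coagulation factor XIII A chain often used as an M2 marker, had 104 and 97.9 FPKM with IL4, against 398 and 313 FPKM untreated (-1.80 ± 0.12), and the growth factor Pdgfc fell by 1.79.

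A list of surface receptors and other marker genes of alternative activation rose in 20 of 22 tested members, 17 at least 2-fold, and none fell (median 1.90). With the stricter filter 12 rose, with a median of 1.64. Clec7a, the beta-glucan receptor Dectin-1, had 383 and 313 FPKM with IL4, against 113 and 83.8 FPKM untreated (1.82 ± 0.15). Cd36, a scavenger receptor for oxidised lipoproteins, had 439 and 405 FPKM, against 156 and 127 FPKM untreated (1.57 ± 0.15). Mrc1, the mannose receptor CD206 and a standard M2 marker, had 475 and 442 FPKM, against 304 and 237 FPKM untreated (0.77 ± 0.13), an increase that was smaller than most and was 0.15 (adjusted p = 0.217) with quantile normalization. Clec10a (CD301a) rose by 1.26 and Msr1 by 0.79. The 2 members that did not pass the test were Cd163 (-0.08, adjusted p = 0.552) and Clec4a1 (-0.22, adjusted p = 0.151). Among checkpoint and costimulatory ligands, PD-L2 (Pdcd1lg2) rose by 3.62, PD-L1 (Cd274) by 0.47 and Cd83 by 1.03. Cd86 had 21.0 and 18.8 FPKM with IL4, against 22.1 and 18.9 FPKM untreated, and Cd80 fell by 0.67.

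Among the osteoclast markers, Dcstamp and Ocstamp, membrane proteins needed for fusion of osteoclasts and giant cells, had 28.6 and 34.0 FPKM and 16.6 and 28.2 FPKM with IL4, and none exceeded 0.116 FPKM in untreated cells. Atp6v0d2, a proton pump subunit of fusing cells, had 182 and 159 FPKM with IL4, against 18.3 and 15.8 FPKM untreated (3.25 ± 0.12). Of the 7 tested osteoclast markers 6 rose and 1 fell, with summed levels of 251 and 249 FPKM with IL4, against 23 and 23.3 FPKM untreated. Dcstamp, Ocstamp and Acp5 passed the filter on low values only through IL4 libraries, while Mmp9, Oscar and Calcr did not pass it. With the stricter filter 2 markers rose. The others that rose were the integrin Itgb3 (2.55), the phosphatase Acp5 (2.51) and the protease Ctsk (1.87), the last at 7.74 and 6.67 FPKM with IL4. Nfatc1, the leading transcription factor of osteoclasts, fell, with 0.935 and 1.45 FPKM, against 1.8 and 4.77 FPKM untreated (-0.88, adjusted p = 0.0153), a call lost without the first IL4 library (-0.71, 0.0898) or the second untreated one (-0.36, 0.0644). Calcr, the calcitonin receptor of mature osteoclasts, was listed at 0 in all 4 libraries, which can be a failed estimate and does not show absence.

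Arginine and polyamine genes rose in 16 of 23 tested members with 1 fall and a median of 0.63. In a fit of the 4 libraries alone 10 rose, and with quantile normalization 2 fell, with a median of 0.46. Besides Arg1 and the importer Slc7a2 (3.82), Odc1, the first enzyme of polyamine synthesis, had 19.2 and 21.8 FPKM with IL4, against 7.48 and 6.62 FPKM untreated (1.41 ± 0.09). Gatm, of creatine synthesis, rose by 1.46 and Ass1, which rebuilds arginine from citrulline, by 1.39. Nos2, the inducible nitric oxide synthase that competes for arginine, had 0.514 and 0.711 FPKM with IL4, against 0.584 and 0.486 FPKM untreated, which did not differ beyond the replicates (0.07, adjusted p = 0.576).

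**Figure D3:**
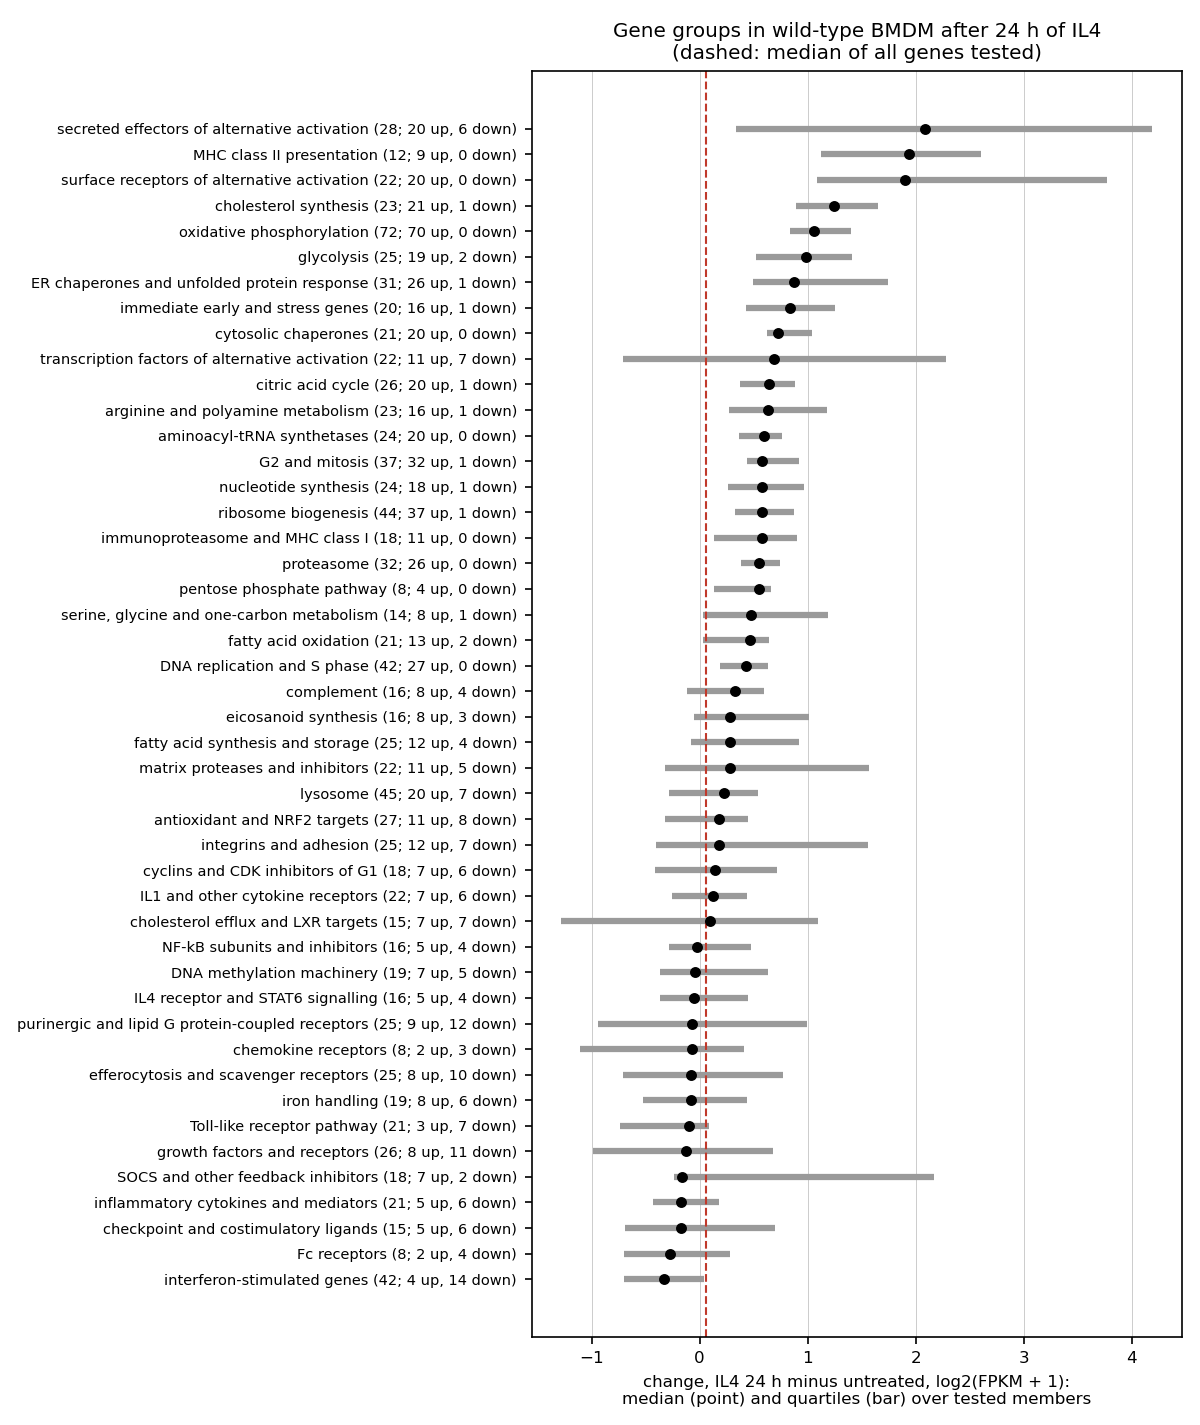
Median log2 change (point) and quartiles (line) of the tested members of each gene group in wild-type BMDM, 24 h of IL4 minus untreated, with the median of all genes (0.06) as a dashed line. Effectors (median 2.09), MHC class II (1.94), surface receptors (1.90) and cholesterol synthesis (1.24) lie furthest to the right, and interferon-stimulated genes (-0.33) and Fc receptors (-0.27) lie left of the line. The median of the 8 Fc receptors was -0.02 without the first IL4 library, -0.51 without the second and -0.78 with quantile normalization.

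Presentation on MHC class II rose as a group, with 9 of 12 tested members up, all 9 at least 2-fold, none down and a median of 1.94. Cd74, the invariant chain, had 458 and 671 FPKM with IL4, against 32.9 and 32.5 FPKM untreated (4.04 ± 0.17). The classical class II chains rose less, H2-Ab1 to 54.9 and 86.8 FPKM, against 11.1 and 11.0 FPKM untreated (2.53 ± 0.21), H2-Aa by 2.26 and H2-Eb1 by 1.69. Ciita, the class II transactivator that turns these genes on, had 7.15 and 9.67 FPKM, against 0.265 and 0.453 FPKM untreated (2.78 ± 0.13). All of these were higher in both IL4 libraries than in either untreated library. The peptide loaders H2-DMa (3.16), H2-DMb1 (2.19) and H2-DMb2 (1.61) rose, as did Ctss, the protease that trims the invariant chain, with 2692 and 2649.7 FPKM, against 1087 and 867 FPKM untreated (1.46 ± 0.15). Of the markers of dendritic cells, which present antigen by class II, Zbtb46 had 1.09 and 1.07 FPKM with IL4, against 0.32 and 0.105 FPKM untreated (0.79, adjusted p = 3.0e-04), and was the 1 of 3 tested that rose. The list summed to 178 and 248 FPKM with IL4, against 175 and 132 FPKM untreated, nearly all from Bst2 (0.48, adjusted p = 0.0821). Their part in the class II result was not tested. The 3 class II members that did not pass were Rfx5, Rfxap and Rfxank, the subunits of the constitutive promoter-binding RFX complex, with changes of 0.11, -0.06 and -0.11.

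Cholesterol synthesis rose in 21 of 23 tested enzymes and regulators, 14 at least 2-fold, with a median of 1.24. Fdps, which makes farnesyl diphosphate, had 92.7 and 106 FPKM with IL4, against 16.0 and 12.7 FPKM untreated (2.71 ± 0.14). Idi1 had 28.6 and 25 FPKM, against 4.6 and 4.58 FPKM untreated (2.31 ± 0.12). Both enzymes had their IL4 libraries far above the untreated ones. Enzymes further along the pathway rose too, Sqle by 1.89 and Cyp51 by 2.21. The master regulator Srebf2 rose by 0.78. Dhcr7 did not pass (0.14), and Fdft1, squalene synthase, was the only member that fell, with 50.2 and 51.8 FPKM, against 61.3 and 62.8 FPKM untreated (-0.28, adjusted p = 0.0209), a call lost without the first IL4 library (-0.26, 0.0546). Hmgcs1 was listed at 0 in all 4 libraries, which can be a failed estimate, and was not tested.

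Cholesterol export genes diverged. Abcg1, an exporter to HDL, rose to 78.0 and 99.7 FPKM, against 26.6 and 25.5 FPKM untreated (1.72 ± 0.12). Abca1, the exporter to lipid-poor apolipoprotein A1, fell to 23.1 and 26.5 FPKM, against 69.5 and 74.1 FPKM untreated (-1.50 ± 0.10). Of 15 tested export and LXR target genes 7 rose and 7 fell (46.7% each), beside 29.7% and 20.3% of all genes tested. Mylip, a ubiquitin ligase and LXR target, fell by 1.48, Apoc2 by 1.97 and Apoe by 0.83, while Scd2, a fatty acid desaturase, rose by 2.98. Among lipid handling genes, Fabp4, a fatty acid carrier and PPAR gamma target, had 376 and 316 FPKM with IL4, against 79.9 and 62.3 FPKM untreated (2.27 ± 0.18), and Lpl, lipoprotein lipase, rose by 1.45. Fatty acid oxidation, known as a fuel route of M2 macrophages, rose in 13 of 21 tested genes and fell in 2. The median was 0.47, and 0.3 with quantile normalization. Only 1 gene rose at least 2-fold, namely Etfb (1.2), and 6 rose in a fit of the 4 libraries alone.

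Glycolysis and oxidative phosphorylation rose side by side. In glycolysis 19 of 25 tested genes rose and 2 fell (median 0.98, and 0.48 with quantile normalization). Pgk1 had 311 and 331 FPKM with IL4, against 90.1 and 72.1 FPKM untreated (1.98 ± 0.13), and the lactate exporter Slc16a1 (1.95), Pfkp (1.87), the glucose transporter Slc2a1 (1.57) and Ldha (1.22) rose, while Slc2a3 and Pfkfb3 fell by 0.89 and 0.82. In the citric acid cycle 20 of 26 rose and 1 fell (median 0.64, and 0.44 with quantile normalization). Subunits of the respiratory chain and ATP synthase rose in 70 of 72 tested genes, 41 of them at least 2-fold, with none down and a median of 1.06. Uqcr10 of complex III had 301 and 332 FPKM with IL4, against 106 and 86.4 FPKM untreated (1.71 ± 0.12). Atp5e and Atp5o of the ATP synthase rose by 1.67 and 1.71, and Cox6a1 of complex IV by 1.34. The 2 that did not pass were Ndufs5, whose libraries of a group disagreed (6.82 and 0.0943 against 9.75 and 0.0714 FPKM), and Ndufa7 (0.57, adjusted p = 0.0548).

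The respiratory genes are short, and the change varied with gene length over all genes. In 10 equal bins of genes ordered by length from start to end, introns included, the median log2 change ran from 0.30 in the bin of shortest genes to -0.13 in that of the longest, and the share that rose from 42.3% to 20.1%. In the cells labelled knockout the same medians ran from 0.13 to 0.03. Of the 72 respiratory genes 22 lay in the bin of shortest genes. Their median level also differed between the untreated libraries, by 0.19 above and below their mean, and was 1.01 and 1.15 above that mean in the IL4 libraries. Without the first untreated library the median change was 1.27, without the second 0.88, and with quantile normalization 0.64. In the cells labelled knockout the median change of the 72 respiratory genes was 0.81, with 60 up and 1 down. The part of gene length in the result was not tested. Cytosolic ribosomal proteins, a list added after values had been seen, are shorter still, with 59 of 81 genes in that bin. Of these genes 67 rose and none fell, with a median of 0.73, but with quantile normalization 21 rose and 7 fell, with a median of 0.13, and in the 4 libraries alone 26 rose. In the cells labelled knockout their median change was 0.20. Of the 20 tested immediate early and stress genes, 14 also lay in the bin of shortest genes. The part of gene length in their rise was not tested.

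Genes of protein folding and secretion rose with the secreted effectors. Of 31 tested endoplasmic reticulum chaperones and unfolded protein response genes 26 rose, 14 at least 2-fold, and 1 fell (median 0.87). Sdf2l1 had 166 and 185 FPKM with IL4, against 28.7 and 24.4 FPKM untreated (2.68 ± 0.10). Creld2 (2.59) and the disulfide isomerase Pdia4 (2.33) followed, and Calr, the calcium-binding chaperone calreticulin, had 563 and 600.4 FPKM with IL4, against 169.5 and 141 FPKM untreated (1.90 ± 0.12). Each of these had both IL4 libraries far above both untreated libraries. A list of mostly cytosolic chaperones rose in 20 of 21 tested members (median 0.73, and 0.44 with quantile normalization). It also holds Hspe1, the mitochondrial co-chaperonin, which rose by 1.34. Ribosome biogenesis factors rose in 37 of 44 (median 0.58), led by Nop16 (1.53), though 22 rose in the 4 libraries alone. For the proteasome 26 of 32 subunits rose (median 0.55), but 16 did with quantile normalization and 12 in the 4 libraries alone. Of 24 tested nucleotide synthesis genes 18 rose and 1 fell. The largest rise was that of Prps1, which makes the ribose donor of purines, with 24.8 and 26.9 FPKM, against 2.51 and 1.94 FPKM untreated (3.06 ± 0.10). The member that fell was its relative Prps2, with 5.59 and 5.82 FPKM with IL4, against 14.4 and 12.9 FPKM untreated (-1.13 ± 0.08).

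Genes of the later cell cycle rose from low levels. Of 37 tested genes of G2 and mitosis 32 rose, 7 at least 2-fold, and 1 fell (median 0.58). Top2a, the topoisomerase of dividing cells, had 6.94 and 5.56 FPKM with IL4, against 1.73 and 1.54 FPKM untreated (1.46 ± 0.13), and Birc5 (survivin) had 2.84 and 2.85 FPKM, against 0.432 and 0.463 FPKM untreated (1.41 ± 0.14). Most members were at a few FPKM even with IL4. With the stricter filter, which drops members at low values, 6 rose, with a median of 0.34. The histone variant gene Cenpa was the member that fell (-1.03). Of 42 S phase genes 27 rose and none fell (median 0.43, with 3 falls under quantile normalization), with Uhrf1, the maintenance methylation factor, at 1.53, and 15 rose without the second untreated library. Of 18 G1 cyclins and inhibitors 7 rose (38.9%) and 6 fell (33.3%), beside 29.7% and 20.3% of all genes tested. Their median was 0.14, with Ccnd1, cyclin D1, at 1.44.

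**Figure D4:**
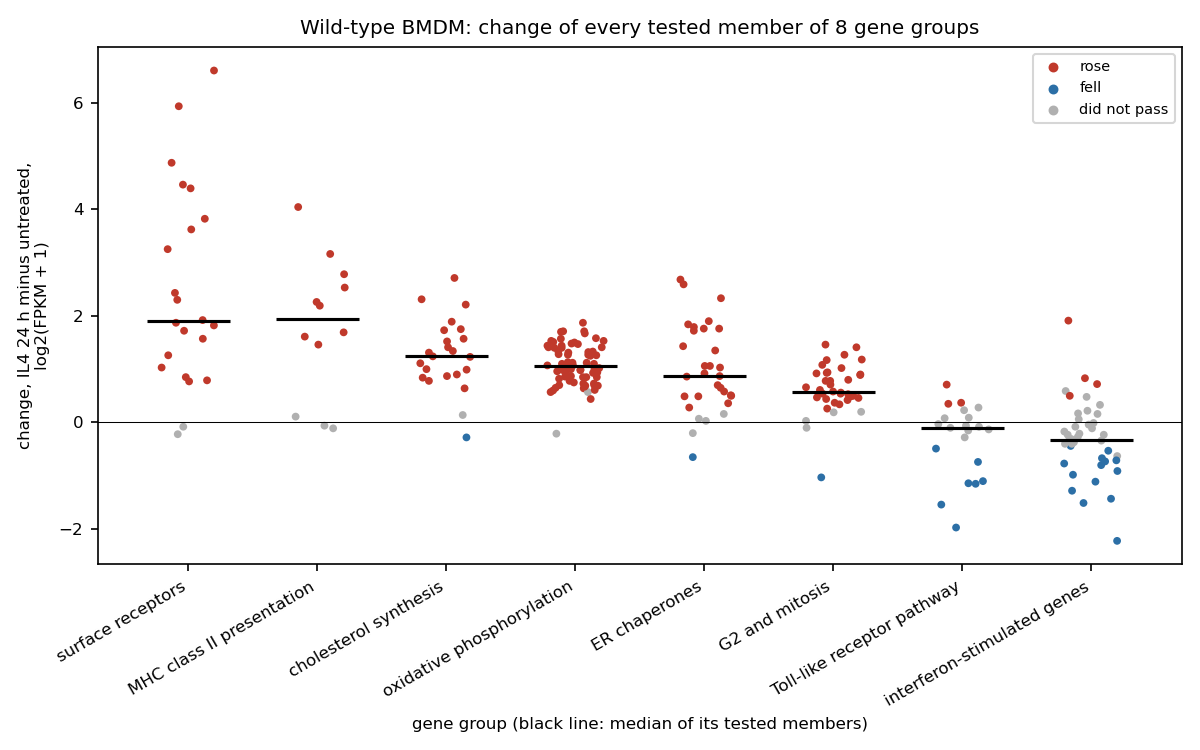
Log2 change (24 h of IL4 minus untreated, wild-type BMDM) of each tested member of 8 gene groups, coloured red where it rose, blue where it fell and grey where it did not pass the test. Members of oxidative phosphorylation have a median of 1.06 and quartiles of 0.84 and 1.4, and all but 2 rose. MHC class II splits into 9 genes that rose and 3 RFX subunits near 0, and interferon-stimulated genes spread on both sides of 0.

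Among genes that fell, the largest change outside small RNA genes and the pseudogene model Rpl31-ps12 (0.23 and 0.271 FPKM with IL4, against 29.0 and 23.5 FPKM untreated, -4.44, with uncertain read assignment) was in Slc40a1, ferroportin, the only known cellular iron exporter. Slc40a1 had 2.58 and 3.16 FPKM with IL4, against 78.3 and 74.5 FPKM untreated (-4.32 ± 0.10, adjusted p = 5.3e-10). Of 19 tested iron handling genes 8 rose (42.1%) and 6 fell (31.6%), beside 29.7% and 20.3% of all genes tested. Their median was -0.08 (-0.46 with quantile normalization). Tfrc, the transferrin receptor of iron uptake, had 223 and 215 FPKM with IL4, against 43.6 and 36.2 FPKM untreated (2.43 ± 0.11). Fth1, the ferritin heavy chain of iron storage, had 823 and 1066 FPKM, against 2176 and 2566 FPKM untreated (-1.33 ± 0.17), and Ncoa4, which delivers ferritin for breakdown, fell by 1.12. The light chain Ftl1 had 3624 and 5763 FPKM with IL4, against 5336 and 4509 FPKM untreated (-0.10, adjusted p = 0.713).

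Gpr34, a receptor for lysophosphatidylserine, had 2.56 and 2.06 FPKM with IL4, against 60.7 and 39.8 FPKM untreated (-3.93 ± 0.18). Gpr162, an orphan receptor, had 0.732 and 1.56 FPKM, against 31.4 and 24.1 FPKM untreated (-3.76 ± 0.17). The lectins Clec4n (Dectin-2) and Clec4d had 16.5 and 17.2 FPKM and 31.5 and 30.8 FPKM with IL4, against 159 and 117 FPKM and 209.8 and 174 FPKM untreated, falls of 2.95 and 2.58, whereas Dectin-1 rose. Ctla2b, a relative of cysteine protease propeptides, fell by 2.95, Ncapg2, a condensin II subunit, by 2.87 and Ms4a6b by 2.69. The insulin-like growth factor binding protein Igfbp4 fell by 2.66, the sialic acid receptor Cd33 by 2.43 and the laminin receptor chain Itga6 by 2.33. Among 25 tested G protein-coupled receptors for nucleotides and lipids 12 fell (48.0%) and 9 rose (36.0%), beside 20.3% and 29.7% of all genes tested. S1pr1, the sphingosine 1-phosphate receptor, fell by 2.02, P2ry12 by 1.48 and P2ry13 by 1.24, while the prostacyclin receptor Ptgir rose by 2.84, P2ry1 by 2.67 and the adenosine receptor Adora2b by 2.18.

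Genes of the Toll-like receptor pathway fell in 7 of 21 tested members and rose in 3, beside the 20.3% of all genes tested that fell and the 29.7% that rose. In a fit of the 4 libraries alone 1 member rose. Tlr7, the endosomal sensor of single-stranded RNA, had 15.8 and 15 FPKM with IL4, against 55.8 and 71.3 FPKM untreated (-1.97 ± 0.11). Tlr2 fell by 1.54, Tlr9 by 1.14, Tlr13 by 1.10 and the lipopolysaccharide co-receptor Cd14 by 1.15. Tlr4, the lipopolysaccharide receptor, rose to 82.5 and 75.3 FPKM, against 52.4 and 43.5 FPKM untreated (0.71 ± 0.11). Tlr8 had 65.9 and 64.2 FPKM with IL4, against 66.3 and 71.0 FPKM untreated (-0.08, adjusted p = 0.526).

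Interferon-stimulated genes fell in 14 of 42 tested members (33.3%) and rose in 4 (9.52%), with a median of -0.33. Of all genes tested 20.3% fell and 29.7% rose. Without the first IL4 library 7 fell, without the second 9, and without the second untreated library 8. Ifit3 had 4.3 and 4.44 FPKM with IL4, against 25.7 and 22.4 FPKM untreated (-2.22 ± 0.33), the chemokine Cxcl10 fell by 1.51 and the antiviral enzyme Rsad2 by 1.43. Gbp2, a guanylate-binding protein, rose to 61.1 and 51.5 FPKM, against 14.7 and 13.7 FPKM untreated (1.91 ± 0.13), and the nucleic acid sensor Zbp1 rose by 0.83. Among inflammatory mediators the chemokine Ccl9 had 621 and 639 FPKM with IL4, against 126 and 101 FPKM untreated (2.47 ± 0.13), Cd40 rose by 1.82, and Ccl3 and the inflammasome sensor Nlrp3 fell by 1.12 and 1.10. Il1b and Tnf did not pass the test (-0.21, adjusted p = 0.162, and -0.25, adjusted p = 0.0802).

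Other families held strong and opposite changes. C3, the central complement component, had 69.2 and 78.8 FPKM with IL4, against 4.83 and 5.39 FPKM untreated (3.62 ± 0.12), and C5ar1, the receptor of C5a, fell by 1.52. Gas6, the bridging ligand of the Axl and Mertk receptors, had 79.7 and 107 FPKM with IL4, against 430.1 and 344 FPKM untreated (-2.04 ± 0.15), and Mertk itself fell by 1.10. Both receptor chains for TGF beta fell, Tgfbr1 by 1.51 and Tgfbr2 by 1.63, while the GM-CSF receptor chains Csf2ra and Csf2rb rose by 1.67 and 1.03. In prostaglandin metabolism, the synthase Ptgs1 rose (2.30), and Hpgd, which inactivates prostaglandins, and Hpgds, which makes prostaglandin D2, fell by 2.22 and 1.89. Ednrb, the endothelin B receptor, fell to 5.58 and 5.26 FPKM, against 27.9 and 22.7 FPKM untreated (-2.03 ± 0.11), while its ligand gene Edn1 rose by 2.50. The tetraspanin Cd9 had 432 and 457 FPKM with IL4, against 82.8 and 69.8 FPKM untreated (2.53 ± 0.12). The integrin chains Itga4 and Itga9 fell by 1.85 and 1.53 while Itgb7 rose by 1.57.

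Of the genes at the highest levels, Lyz2, lysozyme, had 8525 and 9889 FPKM with IL4, against 18003 and 13803 FPKM untreated (-0.78 ± 0.18, adjusted p = 0.00524), and 0.00 with quantile normalization. Sepp1, the selenium transport protein, fell to 1645 and 1652 FPKM, against 4916 and 3995 FPKM untreated (-1.43 ± 0.15), and Psap, the precursor of the saposins, rose to 5638 and 7267 FPKM, against 3976 and 3297 FPKM untreated (0.82 ± 0.17). Macrophage markers were high in both groups. Csf1r, the M-CSF receptor, had 433 and 576 FPKM with IL4, against 569.7 and 553 FPKM untreated (-0.17, adjusted p = 0.331, and -0.79 with quantile normalization), and Emr1, the F4/80 antigen, had 383 and 426 FPKM, against 456 and 339 FPKM untreated (0.04, adjusted p = 0.845, and -0.53 with quantile normalization). Of 12 macrophage markers tested none rose and 5 fell (8 with quantile normalization, and without the first IL4 library 3 rose), with Lyz2, Cd14, Fcgr1 and Mertk among them. Summed marker levels were 2.52 and 2.55 FPKM with IL4, against 4.55 and 4.92 FPKM untreated, for fibroblasts, 1.42 and 1.62 against 1.46 and 0.487 FPKM for B cells, and 0.981 and 0.861 against 4.88 and 4.62 FPKM for T and NK cells, almost all of the last from Cd4, while Cd3g and Gzma were listed at 0 in all 4 libraries. A listed 0 can be a failed estimate, as Hmgcs1 is also at 0, and does not show absence. Eosinophil, basophil and mast cell markers summed to 1.72 and 1.29 FPKM with IL4, against 1.01 and 1.09 FPKM untreated, and Epx was listed at 0 in all 4 libraries, with the same limit. Neutrophil markers summed to 141 and 135 FPKM with IL4, against 123 and 87.2 FPKM untreated, nearly all from S100a8 and S100a9, while Mpo was at most 0.179 and Elane at most 0.107 FPKM. S100a9 rose, with 76.8 and 62.5 FPKM with IL4, against 53.5 and 31.6 FPKM untreated (0.74, adjusted p = 0.0329), a call lost without the first IL4 library (0.59, 0.149) or the second untreated one (0.37, 0.277).

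Of 19 tested DNA methylation genes 7 rose and 5 fell, with a median of -0.04, beside the 29.7% and 20.3% of all genes tested. Tet2, which oxidises 5-methylcytosine, rose to 9.38 and 9.82 FPKM, against 4.11 and 5.91 FPKM untreated (0.84 ± 0.13, adjusted p = 5.1e-04). Dnmt3a, a de novo methyltransferase, rose by 0.94, and Gadd45a, a stress gene linked to demethylation, fell by 1.98. Tet3 had 2.25 and 3.03 FPKM with IL4, against 2.58 and 5.07 FPKM untreated (-0.36, adjusted p = 0.158), and Tet1 was at most 0.0149 FPKM in the 4 libraries.

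The 10 h libraries show when the 24 h levels were reached. Both time points are set against the same untreated libraries. At 10 h 28.2% of genes had risen and 14.2% had fallen, and from 10 to 24 h 1218 genes (11.6%) went higher and 1508 (14.3%) lower. Of the 15 largest rises at 24 h, 14 had also been called at 10 h, and 13 were higher at 24 h than at 10 h. Of the 15 largest falls all 15 had been called at 10 h, and 11 were lower still at 24 h. Both sets were picked by their 24 h change, and the comparison with 10 h uses the same 24 h libraries. A further change after 10 h is therefore favoured by the choice. Early genes were close to their 24 h level by 10 h. Tmem26 had 0.109 and 0.173 FPKM untreated, 22.2 and 21.0 FPKM at 10 h and 27.1 and 31.2 FPKM at 24 h, and Batf3 had 67.4 and 66.4 FPKM at 10 h. Pdcd1lg2 had 13.5 and 12.4 FPKM and Nfil3 49.5 and 48.7 FPKM at 10 h, both within the range of the 24 h libraries.

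Late genes were near their untreated level at 10 h. Ear2 had 0.3 and 0.208 FPKM untreated, 0.714 and 0.348 FPKM at 10 h and 55.7 and 49.8 FPKM at 24 h (5.14 for 24 h minus 10 h, adjusted p = 4.6e-07). Mmp12 had 6.79 and 5.5 FPKM untreated, 7.27 and 6.77 FPKM at 10 h and 76.9 and 70.3 FPKM at 24 h (3.22, adjusted p = 1.5e-06). H2-Ab1 had 11.1 and 11.0 FPKM untreated, 12.1 and 9.76 FPKM at 10 h and 54.9 and 86.8 FPKM at 24 h. For Ciita and H2-Ab1 most of the rise came between 10 and 24 h (2.37 and 2.56), and 8 of the 12 class II genes were higher at 24 h than at 10 h, none lower. Cholesterol synthesis was higher at 24 h than at 10 h in 18 of 23 genes, S phase in 23 of 42 and G2 and mitosis in 30 of 37, the last with a median of -0.07 at 10 h.

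Other genes had passed their peak among the times sampled. Ccl7 had 2.07 and 3.5 FPKM untreated, 183 and 169.6 FPKM at 10 h and 64.2 and 65.8 FPKM at 24 h (-1.42 for 24 h minus 10 h, adjusted p = 2.1e-04). Mrc1 had 304 and 237 FPKM untreated, 725 and 719 FPKM at 10 h and 475 and 442 FPKM at 24 h. Tfrc had 43.6 and 36.2 FPKM untreated, 377 and 366 FPKM at 10 h and 223 and 215 FPKM at 24 h. Prps1 (63.2 and 59.9 FPKM at 10 h), Cd40 (34.8 and 33.0 FPKM) and Ptgs1 (113 and 111 FPKM) also fell back between 10 and 24 h. Il4ra was at 40.0 and 42.5 FPKM at 10 h, so of the 3 times it was lowest at 24 h. Of the 44 ribosome biogenesis genes 27 were lower at 24 h than at 10 h and 1 was higher.

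**Figure D5:**
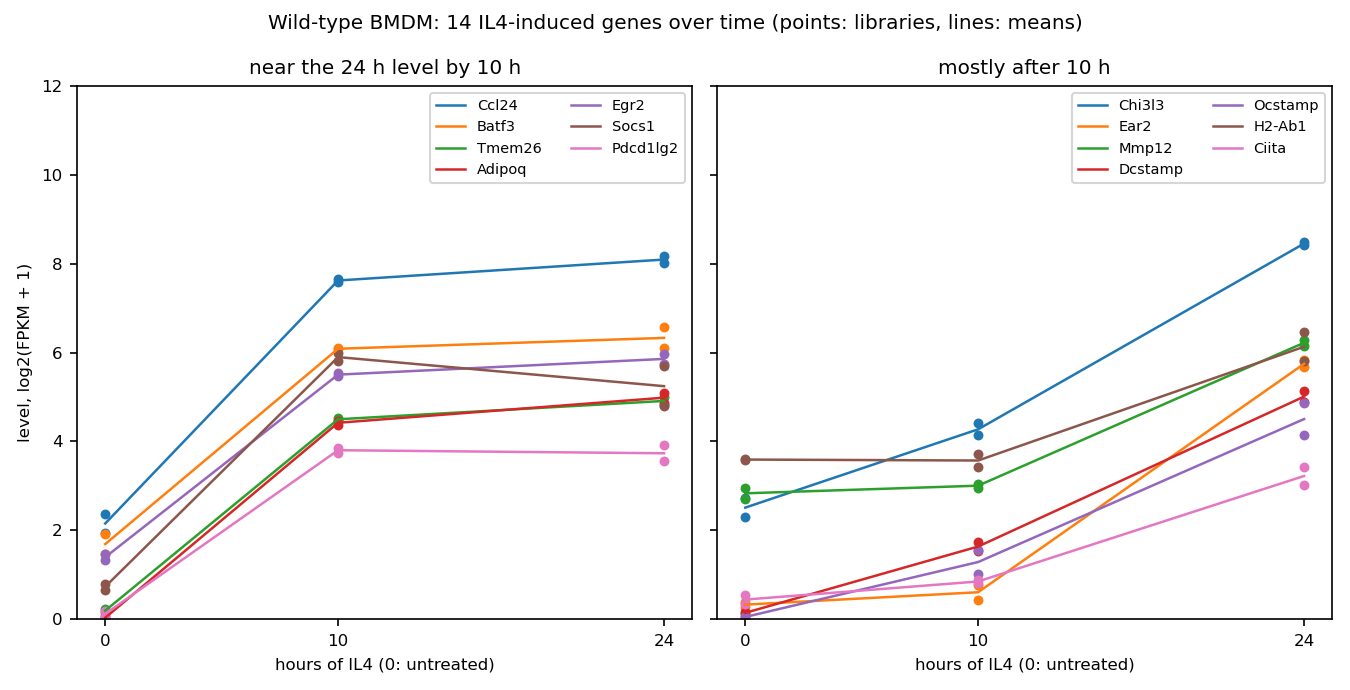
Mean level with each library (log2(FPKM + 1)) in wild-type BMDM untreated and after 10 and 24 h of IL4, for genes near their 24 h level by 10 h (left) and genes that rose mainly between 10 and 24 h (right). On the left Tmem26 goes through 22.2 and 21.0 FPKM at 10 h to 27.1 and 31.2 FPKM at 24 h, and on the right Mmp12 stays at 7.27 and 6.77 FPKM at 10 h and lies at 76.9 and 70.3 FPKM at 24 h.

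In the BMDM labelled Tet2 knockout 26.5% of genes rose and 17.1% fell after 24 h of IL4. Of the genes that rose at least 2-fold, 455 did so in both, which is 75.5% of the 603 in labelled knockout (5.74% of genes tested) and 64.9% of the 701 in wild type (6.67%). Of those that fell at least 2-fold 245 were in both, 65.0% of 377 in labelled knockout (3.59%) and 68.8% of 356 in wild type (3.39%). The responses themselves differed, by the interaction term of the same fit, for 31 genes (0.295% of those tested). Arg1 was among them: it had 373 and 417 FPKM with IL4, against 1.63 and 1.45 FPKM untreated, in labelled knockout, and 1065 and 991 FPKM, against 1.38 and 1.03 FPKM, in wild type (labelled knockout minus wild-type response, -1.59 ± 0.17, adjusted p = 0.0034). F10 had 30.7 and 37.1 FPKM with IL4, against 0.903 and 0.947 FPKM untreated, in labelled knockout, below the 84.1 and 90.6 FPKM with IL4 in wild type (-1.36 ± 0.15, adjusted p = 0.0034), and Fn1 had 25.4 and 26.1 FPKM, against 2.33 and 2.08 FPKM untreated, in labelled knockout, beside 33.2 and 43.3 FPKM with IL4 in wild type (-1.26 ± 0.19, adjusted p = 0.0228). Ednrb fell less in labelled knockout, with 14.8 and 14.5 FPKM with IL4, against 23 and 24.0 FPKM untreated (1.38 ± 0.15, adjusted p = 0.00363). The wild-type rise of Tgm2, transglutaminase 2 (23.7 and 29.9 FPKM with IL4, against 10.7 and 9.57 FPKM untreated, 1.31 ± 0.13), was larger than the change in labelled knockout (22.7 and 22.3 against 20.6 and 18.6 FPKM), a difference of -1.12 ± 0.18 (adjusted p = 0.0425). For Retnla, Chi3l3 and Mgl2 the difference was not called, with labelled knockout changes of 8.62, 6.22 and 6.93 beside 9.13, 5.94 and 6.60 in wild type. With 2 libraries a group, a difference that was not called does not show equal responses. By the interaction term, Fabp4 (-1.38), Acp5 (-1.24) and Clec10a (1.0) lay just above the threshold, each with adjusted p = 0.0594.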

How the data were processed

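RNA libraries of 12 BMDM cultures were analysed, of which 4 form the comparison. Per the submitters' processing notes, reads were handled with TopHat and Cuffdiff on mm9, with versions and gene annotation not given in the sources used here. The authors deposited FPKM per gene and library, and whether Cuffdiff also scaled the libraries is not stated. Where a symbol stood in the table more than 1 time (2 symbols), the higher entry was kept. Genes with at least 1 FPKM in at least 2 of 12 libraries (10510) were analysed as log2(FPKM + 1), pseudocount 1, with R 4.3.3 and limma 3.58.1, an intensity trend, 6 groups, 6 residual degrees of freedom and 10.3 with the prior. Benjamini-Hochberg adjustment ran over the 10510 genes, with a threshold of 0.05. Comparisons were 24 h of IL4 against untreated, 24 h against 10 h, and the difference of the 24 h response between labelled knockout and wild type. Tables were made in Python 3.11.15 with pandas 2.3.3 and numpy 2.4.6, and figures with matplotlib 3.10.9. The fit was tested on simulated data. Calls were repeated with other filters, pseudocounts, scalings (median of ratios, quantile) and sets of libraries, with a replicate block, and without each library in turn.

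Members and gene lists were chosen with earlier results of these data known, so lists are described by counts and medians, with no test of a list. A member of a list was counted only if it passed the filter on low values. A member low in untreated cells could pass only through the IL4 libraries, which favours rises in these counts. Genes named by rule were the 15 highest and 15 lowest changes without overlap between groups, the 4 smallest p-values of each list at most, the Tet genes, the most abundant called genes and the genes switched on or off. Of the others, such as Il4ra, Stat6, Mrc1, Ccl7, Pparg, H2-Ab1 and Fn1, each was named after its values were seen. Numbered models and genes of small RNAs were counted only. Gene lengths came from the RefSeq table of another build and are spans from start to end with introns.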

Additional observations from a re-analysis of the deposited data

Results flagged for a closer look

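By the interaction term, the response to 24 h of IL4 differed between labelled knockout and wild type for 8 genes named here, given as labelled knockout minus wild-type log2 response. It was smaller in labelled knockout for Arg1 (-1.59), F10 (-1.36), Fn1 (-1.26) and Tgm2 (-1.12). Ednrb fell less in labelled knockout (1.38). Rrm2, a ribonucleotide reductase subunit, rose more in labelled knockout (0.94), with 4.98 and 5.10 FPKM with IL4, against 0.695 and 0.521 FPKM untreated, and 1.94 and 1.96 FPKM, against 0.559 and 0.451 FPKM, in wild type. Cd4 fell more in labelled knockout (-0.78), to 1.26 and 1.22 FPKM, against 13 FPKM in each untreated library, and 0.487 and 0.525 FPKM, against 4.77 and 4.21 FPKM, in wild type, on a scale that understates changes at such levels. For the pseudogene model Rpl31-ps12 the difference was 4.56, with uncertain read assignment.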

How the results depend on the processing

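FPKM without counts leaves the precision of low genes unknown, and 2 libraries a group limit every call. In a fit of the 4 libraries alone 1804 genes rose and 1104 fell, and with a pseudocount of 0.1, 999 genes rose and 621 fell at least 2-fold. Leaving out a library gave 2323 to 3579 genes that rose and 1622 to 2408 that fell, and 593 to 940 rises and 302 to 454 falls of at least 2-fold. With the replicate number as a block 3015 rose and 2086 fell, and the block changed the call of no named gene. Same-numbered 24 h and untreated wild-type libraries deviated from their group means with r = 0.0549 across genes (-0.141 to 0.149 over all pairs of groups), so the numbers do not show a pairing. With quantile normalization some named genes changed sign: Emr1 to -0.53 (adjusted p = 0.0016), Itgam to -0.35 (0.0011) and Fcgr3 to -0.06, while Lyz2 went to 0.00. The cause was not tested. Lyz2 (-0.78), Apoe (-0.83) and Psap (0.82) did not pass in the 4 libraries alone or without a filter on low values, nor did Cd274 (0.47) and Fdft1 (-0.28) in the 4 libraries alone.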
